A study of Mus musculus with 100 samples.

Results

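The prefrontal cortex of Myt1l heterozygous mice (HET) was compared with that of wild-type animals (WT) on postnatal day 22 (P22), around weaning. The comparison took every P22 library of the series, 24 of 100, which came from 12 of 53 animals, 6 per genotype. WT animals carried 2 intact copies of Myt1l. HET animals carried 1 intact copy and 1 copy with a 7-base deletion, a germline change that involves no Cre or transgene. The labels call the tissue cortex and the methods prefrontal cortex, and the labels give the strain of both groups as C57BL/6J, while the study's methods state that the allele was made in C57BL6/N zygotes. WT comprised 4 females and 2 males and HET 3 females and 3 males, and each genotype had 3 animals in sequencing batch 1 and 3 in sequencing batch 3.

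MYT1L is a zinc finger transcription factor of neurons. It binds DNA through clusters of zinc fingers, recruits histone deacetylase complexes, and is known for repressing genes of non-neuronal programmes while neurons mature. Loss of 1 copy in people causes a neurodevelopmental disorder with intellectual disability, autism and obesity. The question put by the comparison was which transcripts differ in the juvenile prefrontal cortex when 1 copy is disrupted.

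The deletion is shown first because it sets what an RNA count of Myt1l can report. In the GRCm38 reference (the same assembly as mm10), Myt1l spans chr12:29528384-29923213 on the plus strand. Exon 6, which begins with the start codon, lies at chr12:29783621-29783675, and the removed bases lie at chr12:29783649-29783655. The 3 lines below give the exon, the exon after the deletion, and the guide used to cut it, with the deleted bases in capitals in the first and the protospacer-adjacent motif (PAM) in capitals in the last.
wild-type exon: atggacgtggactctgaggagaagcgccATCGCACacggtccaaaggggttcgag
mutant exon: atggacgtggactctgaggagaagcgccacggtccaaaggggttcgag
guide and PAM: aggagaagcgccatcgcacaCGG
The deletion can be placed in 3 equivalent ways, and the placement in capitals is that of the study's wild-type genotyping primer, which ends on these 7 bases. When the longest annotated Myt1l transcript (7202 bases, 25 exons) was translated with the deletion, codon 11 was the first to change and a stop followed at codon 78, in place of codon 1188. RNA from the mutant copy would lack only these 7 bases, so reads of either copy add to the Myt1l count, and the copies were not counted apart.

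Each animal was represented by 31.1 to 53.8 M reads counted to genes, the sum of 2 libraries, and 18062 of 55483 genes passed the filter on low counts. Chi-square values per degree of freedom were 1.21 to 1.355 between the libraries of an animal and 4.43 to 64.9 between animals of a genotype. Xist and Y-linked reads matched the sex label in 12 of 12 animals. Transcripts of cortical neurons were abundant throughout: Slc17a7, the vesicular glutamate transporter of excitatory cortical neurons, was at 1473 to 2103 CPM (read counts scaled to a common library size by TMM) and Gad1, the GABA-synthesising enzyme, at 257.7 to 308.0 CPM. The first principal component held 48.7% of the variance of log2 CPM over genes, and sequencing batch accounted for 96.1% of it and genotype for 0.146%. Batch and sex were covariates in the edgeR tests below unless another model is named.

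Myt1l RNA was higher in HET than in WT, and it was the single gene that passed the test. The 3 WT animals of batch 1 had 204.3, 196.6 and 176.7 CPM and the 3 WT animals of batch 3 had 178.1, 186.4 and 197.9 CPM. The HET animals had 249.6, 249.9 and 240.9 CPM in batch 1 and 226.7, 231.6 and 232.4 CPM in batch 3. Every HET animal was thus above every WT animal. The means were 190.0 ± 11.3 CPM in WT and 238.5 ± 9.83 CPM in HET (SD, n = 6 each). The log2 fold change was 0.33 ± 0.04 (SE), or 1.25-fold, with a 95% interval of 0.23 to 0.42 (edgeR quasi-likelihood test, Benjamini-Hochberg adjusted p = 0.0372). An exact permutation test over the 12 animals gave p = 0.002165 (2-sided), the smallest value that 924 assignments allow. The disrupted copy was therefore not accompanied by a lower transcript level of the gene as a whole. The adjusted p depended on which animal was left out: it was above 0.05 in 9 of 12 fits that left out 1 animal, with a range of 0.0247 to 0.333, while the log2 fold change stayed between 0.30 and 0.35. With sex as the only covariate the log2 fold change was 0.32 and Myt1l was not called (adjusted p = 0.844).

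**Figure D1:**
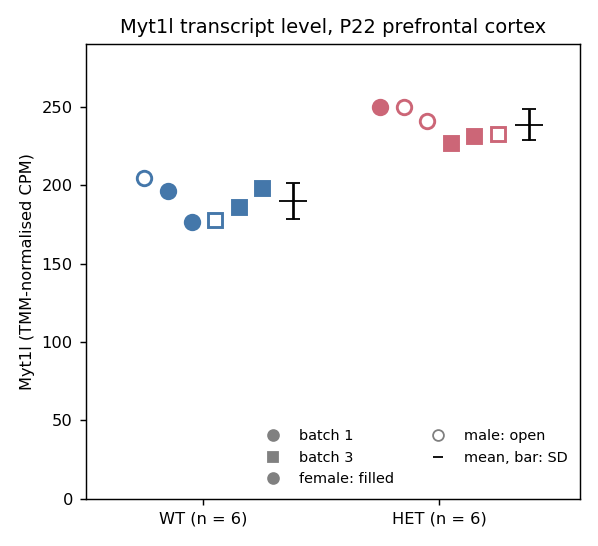
Myt1l level in each of the 12 animals, in TMM-normalised CPM (y axis, from 0), by genotype (x axis). Circles are sequencing batch 1 and squares batch 3, filled symbols females and open symbols males, and black bars mean and SD; the 6 HET animals lie between 226.7 and 249.9 CPM and the 6 WT animals between 176.7 and 204.3 CPM.

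The Myt1l difference was of like size in each subset of animals. It was 0.34 ± 0.07 on the log2 scale within batch 1 and 0.30 ± 0.05 within batch 3, and the difference between batches was −0.06 ± 0.09 (adjusted p = 0.951 for the interaction). In females it was 0.33 and in males 0.32, with a male minus female difference of 0.00 ± 0.09 (adjusted p = 0.997). Neither difference passed the test, and with standard errors of 0.09 these data do not show that the subsets are alike. In a fit over all 53 animals the HET minus WT difference of Myt1l was 0.47 ± 0.08 at the end of gestation (E18.5) and 0.41 ± 0.09 on the day of birth (P0). It was 0.33 ± 0.08 at P22 and 0.09 ± 0.11 in adults. That fit called Myt1l at E18.5 and P0, but neither at P22 nor in adults. The P22 difference minus the adult difference was 0.24 ± 0.13 and did not pass the test (adjusted p = 1.0).

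Neither relative of Myt1l, Myt1 (best known from oligodendrocyte precursors and neurogenic progenitors) nor St18, passed the test. Per kilobase of exon, WT cortex held 13.6 CPM of Myt1l, 1.03 CPM of Myt1 and 0.443 CPM of St18, so Myt1l was by far the most abundant of the 3 at this age. Myt1 was at 7.39 ± 0.440 CPM in WT and 7.60 ± 1.42 CPM in HET, with a log2 fold change of 0.03 ± 0.10. St18 was at 2.86 ± 1.05 CPM in WT and 3.11 ± 0.864 CPM in HET (log2 fold change 0.12 ± 0.13), and its levels were higher in batch 1 than in batch 3 in both genotypes. Of the 17 corepressor genes of SIN3 and histone deacetylase complexes that were tested, through which MYT1L is known to act, 5 had a log2 fold change above 0 and the values ran from −0.09 for Mta1 (63.1 CPM in WT, 59.6 in HET) to 0.06 for Chd4. No corepressor gene was called. The 22 genes whose bodies lie within 2 Mb of Myt1l on chromosome 12 and that were tested had log2 fold changes between −0.21 and 0.18, 9 above 0 and 13 below, and 0 were called (smallest adjusted p 0.992).

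Across the transcriptome the genotypes could hardly be told apart. In all, 1 of 18062 genes was called at a false discovery rate (FDR) under 0.05, 1 higher and 0 lower in HET, which is 0.00554% of those tested. At an unadjusted p under 0.05 there were 881 genes, where 5% of the genes tested would be 903. Of these, 469 were higher in HET (2.6% of genes tested) and 412 lower (2.28%). Log2 fold changes were centred at 0.00 and 50.6% lay above 0. Among the 13691 genes whose mean log2 CPM was 1 or more, the 95th percentile of the absolute log2 fold change was 0.17 and 0 genes exceeded 1, with a median SE of 0.06. The levels of all 6 HET animals lay outside the WT range in 15 genes (0.083%), 11 higher and 4 lower, Myt1l and Bean1 among them. DESeq2 with the same covariates called 8 genes, Myt1l, Chn2 and Thbs4 as higher and Lrfn2, Ccn3, B3galt2, Gng4 and Plxnc1 as lower. A fit without the filter on low counts called 107 genes, and a fit on the 24 unsummed libraries with the library number as replicate block called 33.

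**Figure D2:**
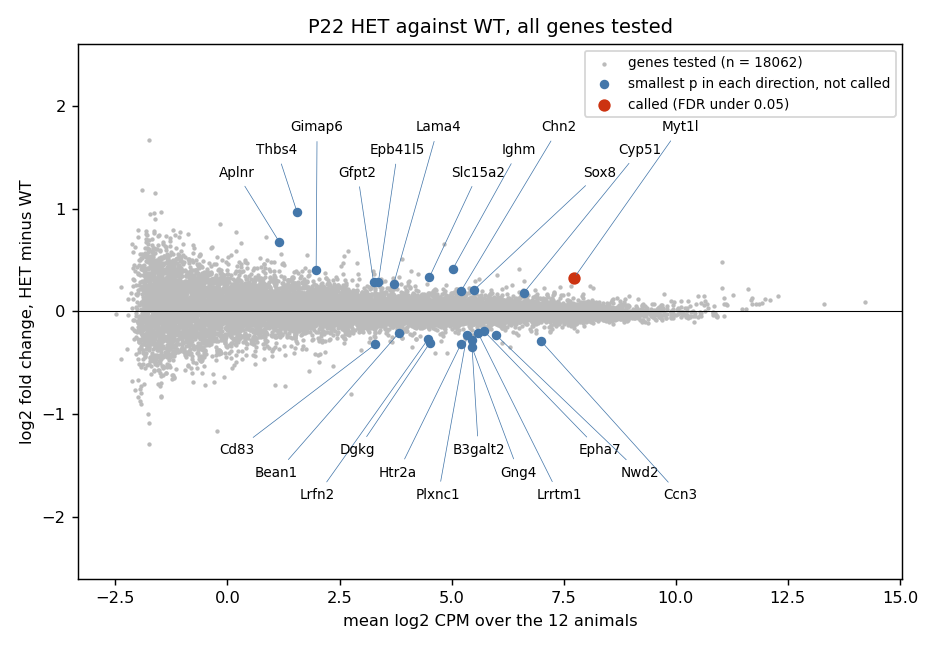
Log2 fold change, HET minus WT (y axis), against mean log2 CPM over the 12 animals (x axis) for the 18062 genes tested. Grey points are genes, the red point is Myt1l, the single gene called, and blue points are the genes with the smallest p in each direction (mean log2 CPM of 1 or more), none of them called.

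For most genes the HET difference had no common sign in the batches. Over these 13691 genes, the log2 fold changes within batch 1 and within batch 3, which rest on different animals, had a Pearson correlation of −0.11 across genes (genes are not independent replicates), and 45.2% of genes had the same sign in both. Of the 816 genes with an unadjusted p under 0.05 within batch 1, 367 (45.0%) had the same sign in batch 3. Myt1l stood in the same quadrant in both batches, at 0.34 and 0.30. No gene passed the test of a difference between the batches (0 called, 0% of 18062; 942 with an unadjusted p under 0.05; 4 called by DESeq2). Within a batch, 3 animals were compared with 3, so a single animal had a large part in each value.

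**Figure D3:**
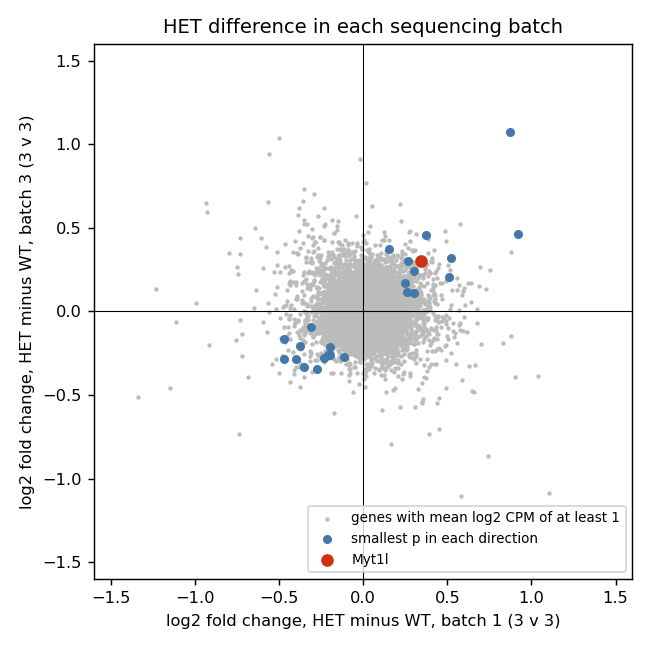
Log2 fold change, HET minus WT, within batch 1 (x axis) and within batch 3 (y axis), 3 animals against 3 in each, for the 13691 genes whose mean log2 CPM was 1 or more. Myt1l (red) lies at 0.34 and 0.30; the blue genes were chosen for small p over all 12 animals and so lie in the quadrants of equal sign, while the grey cloud has no upward slope (Pearson r of −0.11).

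The genes next in rank are given as values, since none of them passed the test (adjusted p 0.528 to 0.910). They were chosen for small p in these same animals. That choice favours genes whose HET animals lie on the same side or apart from WT, so such patterns below add no support. On the side lower in HET, 10 of the 12 genes with the smallest p had all 6 HET animals below the WT mean of their batch. Lrfn2, which encodes a postsynaptic adhesion protein, had 21.8, 22.8 and 23.1 CPM in WT and 19.0, 18.2 and 20.01 CPM in HET of batch 1. In batch 3 it had 26.5, 25.6 and 27.3 CPM in WT and 22.01, 20.1 and 23.3 CPM in HET. The groups did not overlap within either batch, and the log2 fold change was −0.26 ± 0.05 (adjusted p = 0.528). Lrrtm1, another postsynaptic adhesion protein, was at 48.1 to 56.1 CPM in WT and 39.6 to 49.1 CPM in HET, with a log2 fold change of −0.21 ± 0.05. Htr2a, the serotonin 2A receptor, was at 33.2 to 45.3 CPM in WT and 26.2 to 39.0 CPM in HET (−0.31 ± 0.07). The ranges of both genes overlapped, while all 6 HET animals were below the WT mean of their own batch. Cd83, a surface protein of immune cells that neurons also express, was at 8.79 to 13.1 CPM in WT and 7.42 to 10.7 CPM in HET (−0.32 ± 0.07).

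Among other neuronal genes on that side, B3galt2, a galactosyltransferase, had 62.4, 56.7 and 52.97 CPM in WT and 44.9, 45.5 and 45.3 CPM in HET of batch 1. In batch 3 it had 40.4, 42.9 and 37.1 CPM in WT and 36.6, 36.04 and 31.6 CPM in HET, for a log2 fold change of −0.28 ± 0.06. Both batches thus had every HET animal of B3galt2 below every WT animal, with levels lower overall in batch 3. Nwd2 was at 61.4 to 76.9 CPM in WT and 52.1 to 63.5 CPM in HET (−0.22 ± 0.05). Bean1 was at 14.5 to 15.7 CPM in WT and 12.5 to 14.1 CPM in HET (−0.21 ± 0.05), and its groups did not overlap. Epha7, an ephrin receptor, was at 51.5 to 63.5 CPM in WT and 48.4 to 51.9 CPM in HET (−0.19 ± 0.05), and Plxnc1, a semaphorin receptor, at 38.7 to 46.6 and 34.6 to 41.9 CPM (−0.23 ± 0.05).

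For 3 genes of this side 1 HET animal lay far below the others of its batch. Gng4, a G protein gamma subunit, was at 35.25 CPM in the HET female P22_HET_442 of batch 1, against 54.0 and 49.5 CPM in the other HET animals of that batch and 53.5 to 61.4 CPM in its WT animals. Dgkg, a diacylglycerol kinase, was at 16.5 CPM in that animal and at 23.2 and 26.8 CPM in the other two. Ccn3, a secreted matricellular protein of cortical neurons, was at 98.6 CPM there and at 127.6 and 132.6 CPM in the others, with WT at 138.1 to 175.9 CPM. The same animal had 21.4 CPM of Nr4a2, a nuclear receptor of deep cortical and claustral neurons, where the others of the batch had 40.9 to 53.4 CPM. Without it, the log2 fold changes were as follows: Gng4 −0.26, Dgkg −0.23 and Ccn3 −0.23, against −0.35, −0.31 and −0.29 with it. The part of this animal's low Nr4a2 level in these values was not tested.

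On the side higher in HET, where genes were also chosen by their values in these animals, 10 of 12, Myt1l included, had all 6 HET animals above the WT mean of their batch. Chn2, a Rac GTPase-activating protein, had 35.7, 38.8 and 41.6 CPM in WT and 47.2, 42.8 and 43.0 CPM in HET of batch 1, and 30.7, 30.4 and 32.6 CPM in WT and 35.7, 35.1 and 34.7 CPM in HET of batch 3. Its groups did not overlap within either batch (0.20 ± 0.04, adjusted p = 0.528). Cyp51, a cholesterol synthesis enzyme, was at 81.0 to 107.0 CPM in WT and 88.8 to 121.7 CPM in HET (0.18 ± 0.04). Sox8, a transcription factor of glial cells, was at 45.7 to 51.9 CPM in WT and 57.7 to 59.6 CPM in HET of batch 1, and at 35.4 to 37.6 and 37.7 to 40.8 CPM in batch 3 (0.20 ± 0.05). For Sox8 the batches each separated the genotypes, by a wider gap in batch 1.

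Thbs4, a secreted thrombospondin, was at 1.00 to 4.47 CPM in WT and 2.44 to 7.31 CPM in HET, with the largest log2 fold change of the 12 genes of this side, 0.97 ± 0.21. Lama4, a laminin of vessel basement membrane, was at 10.1 to 13.3 CPM in WT and 12.98 to 16.6 CPM in HET (0.27 ± 0.06), and Aplnr, the apelin receptor of endothelial cells, at 0.895 to 2.72 and 1.81 to 3.68 CPM (0.68 ± 0.19). Gimap6, a GTPase of lymphoid and endothelial cells, was at 2.70 to 4.29 CPM in WT and 3.80 to 5.41 CPM in HET (0.40 ± 0.09). Ighm, the immunoglobulin mu chain, was at 25.2 to 34.9 CPM in WT and 22.1 to 50.9 CPM in HET (0.41 ± 0.11), where the HET male P22_HET_446 was below every WT animal. Epb41l5, a protein of epithelial cell junctions, had 1 HET animal, the male P22_HET_695, at 8.58 CPM among 5 at 11.2 to 12.3 CPM, with WT at 8.43 to 10.5 CPM (0.29 ± 0.07). Slc15a2, a peptide transporter of astrocytes, was at 17.6 to 25.5 CPM in WT and 19.6 to 31.0 CPM in HET (0.33 ± 0.09), and Gfpt2, an enzyme of hexosamine synthesis, at 6.81 to 11.8 and 8.28 to 14.2 CPM (0.29 ± 0.08).

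**Figure D4:**
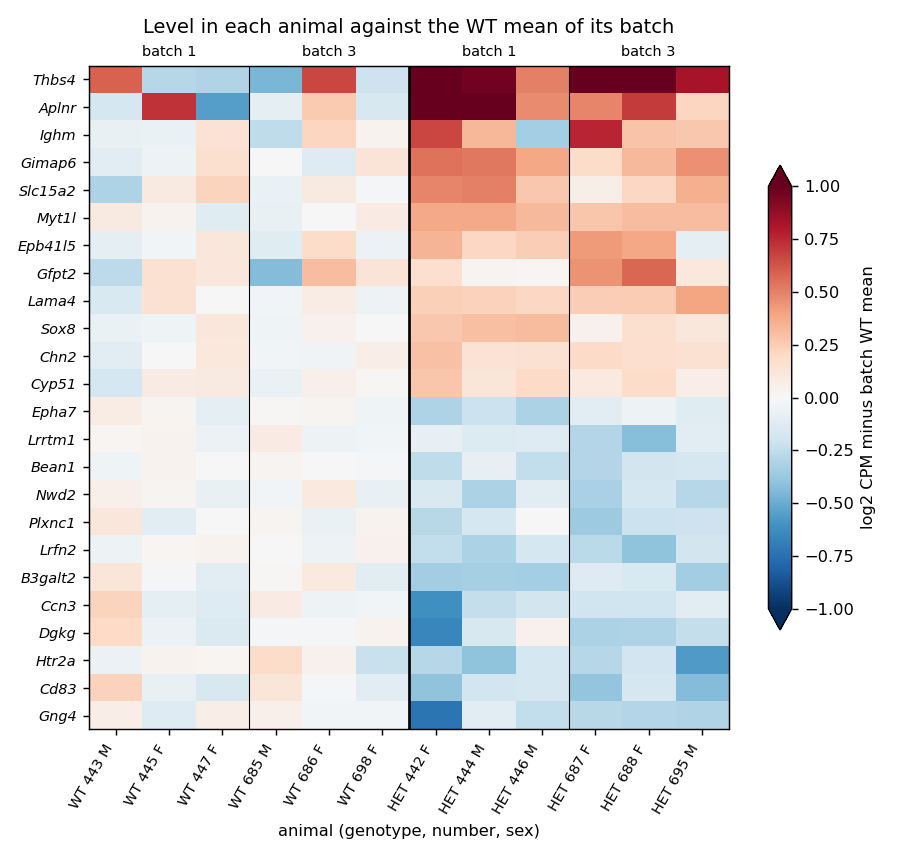
Log2 CPM of each animal minus the WT mean of its sequencing batch (colour, with values past 1 or −1 at the end colours) for Myt1l and the 23 genes with the smallest p in each direction (rows), over the 12 animals (columns: genotype, number, sex). Myt1l is evenly higher in all 6 HET animals, while Gng4, Dgkg and Ccn3 are lowest in P22_HET_442 and Thbs4 and Aplnr vary also among WT animals.

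The HET animals of other ages give values for these 24 genes that rest on other animals, though from the same 2 sequencing batches. At E18.5, 12 of the 12 genes lower at P22 had a HET minus WT difference below 0. Of all 13862 genes with enough expression, 55.4% did. Of the 12 higher genes, 10 had one above 0 (44.6% of all). At P0 the counts were 8 of 12 and 10 of 12 (52.7% and 47.3% of all genes), and in adults 7 of 12 and 6 of 12 (43.3% and 56.7%). Several of the lower genes are neuronal, and the share over all genes is not a matched background for them. At E18.5, 7 of 39 presynaptic, 5 of 46 glutamatergic postsynaptic and 16 of 39 GABAergic genes were above 0. The 12 of 12 at that age therefore do not set these genes apart from neuronal genes at large. The calls at these ages are from the fit over all 53 animals, which called 0 genes at P22 and so not Myt1l. Of the 24 genes, Myt1l was called at E18.5, as the single gene called there (0.00478% of 20920). At P0, where 2016 genes were called (9.64%), Myt1l, Nwd2 and B3galt2 were among them. In adults 0 genes were called (0%; 294 at an unadjusted p under 0.05). Nwd2 differed by −0.66 ± 0.20 at P0 (adjusted p = 0.0285) and by −0.55 ± 0.18 at E18.5 (not called), and B3galt2 by −0.35 ± 0.11 at P0 (adjusted p = 0.0316) and −0.28 ± 0.10 at E18.5 (not called). In adults Nwd2 was at −0.25 ± 0.25 and B3galt2 at 0.06 ± 0.14. E18.5 tissue was cortex rather than prefrontal cortex, so that age also differs in dissection. At E18.5 and P0, WT animals of a batch were all of 1 sex, and all adult WT animals were in batch 1.

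The test of the P22 difference minus that of another age found 14 genes for P0 (0.0669% of 20920 genes), 0 for E18.5 (0%) and 0 for adults (0%). The 14 genes all had a higher value at P22 than at P0. Phactr4, a phosphatase and actin regulator, was at 0.18 ± 0.12 at P22 and −0.69 at P0, a difference of 0.87 ± 0.17 (adjusted p = 0.0197). Rbm12b1 was at 0.05 at P22 and −0.84 at P0, Brip1os at 0.10 and −0.67, Fgd3 at 0.23 and −0.51, and Sav1, a scaffold of the Hippo pathway, at 0.04 and −0.47. Without the batch terms 1 gene passed, so the contrast with P0 depended on the batch model. At an unadjusted p under 0.05 there were 3149, 540 and 264 genes for P0, E18.5 and adults. DESeq2 called 228, 2 and 0. Of the 228, 150 had a higher value at P22 than at P0 and the others a lower one, so its calls ran in both directions. Across 13861 genes the P22 differences had a Pearson correlation of 0.08 with those at P0, 0.14 with those at E18.5 and 0.10 with those in adults, from different animals that share sequencing batches.

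The HET difference was not found to depend on sex at P22. The interaction of sex and genotype called 0 of 18062 genes (0%) with edgeR, with 893 at an unadjusted p under 0.05. DESeq2 called 2, Sema5b and Six3, which were named after their values were seen. Six3 is a member of the striatal list given below. The mean log2 CPM of that list was 5.90 in the HET male P22_HET_444, against 4.33 to 4.91 in the other animals of batch 1. The part of this male in the Six3 call was not tested. With 2 WT males the test had little power, and the same groups cannot show that the sexes respond alike.

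Of the genes on which the study centred, those given here were not called. Hes1, the NOTCH effector, was at 7.57 ± 1.45 CPM in WT and 8.51 ± 1.30 CPM in HET (0.19 ± 0.09), and Prrx1, a homeobox gene of mesenchyme, at 8.45 ± 2.66 and 9.14 ± 2.57 CPM (0.13 ± 0.07). Tfap2b, Sox9, Id3 and Sox2 had log2 fold changes of 0.19 ± 0.18, 0.02 ± 0.06, 0.08 ± 0.07 and 0.02 ± 0.06, and Eomes did not pass the filter on low counts.

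Genes were next grouped into 40 lists by role and cell type, and Myt1l remained the single list member called. The medians of the lists ran from −0.13 to 0.18 on the log2 scale, against 0.00 for all genes, and in no list were the ranges of the animals' mean log2 CPM apart between the genotypes. In 23 of 40 lists the median had the same sign over all animals, within batch 1 and within batch 3. The median over all animals draws on both batches, so its sign is no separate check. No reference share was computed for lists, and this count does not show that the batches agree. Among genes whose mean log2 CPM was 1 or more, 45.2% had the same sign in both batches. In bulk tissue, more cells of a type and more RNA per cell cannot be told apart, and this bears on every list below.

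**Figure D5:**
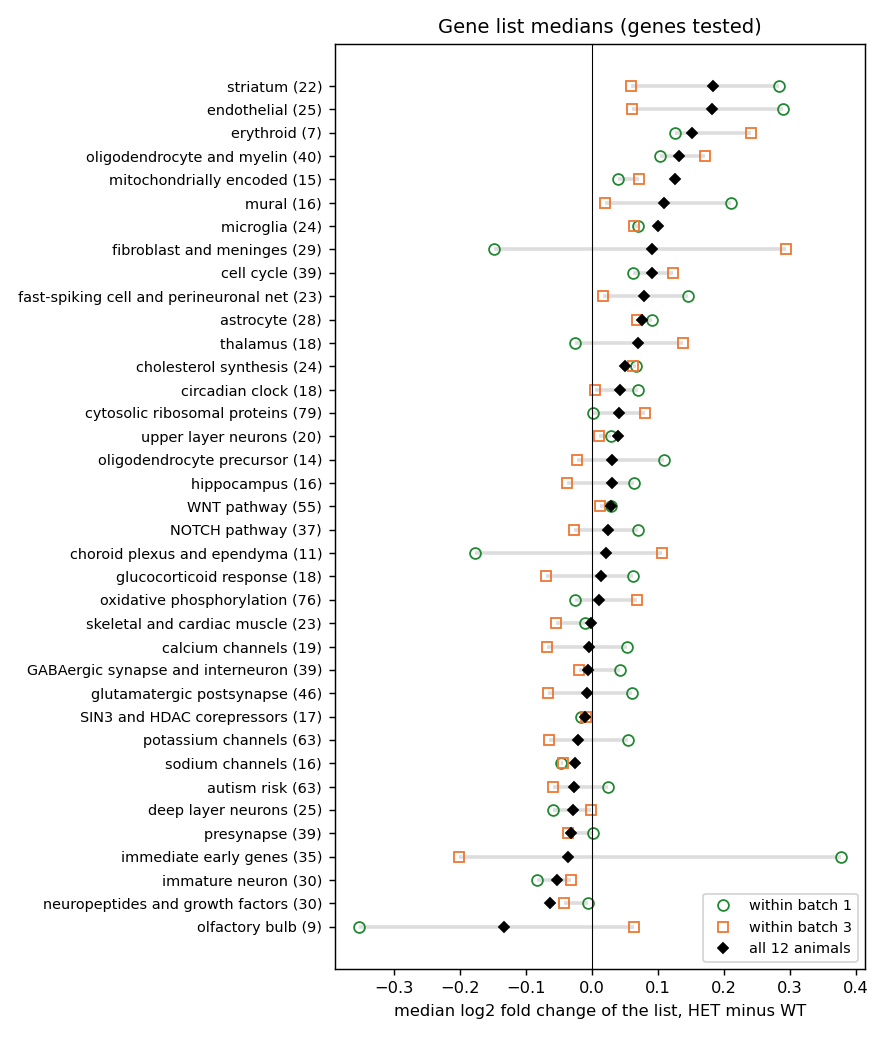
Median log2 fold change, HET minus WT (x axis), of the gene lists (y axis, with the number of genes tested; the MYT family, the study's genes and the substrain genes are left out), over all 12 animals (black diamonds), within batch 1 (green circles) and within batch 3 (orange squares). The medians over all animals lie between −0.13 and 0.18, and the medians within the batches lie farthest apart for immediate early, fibroblast, olfactory bulb and choroid plexus genes, on opposite sides of 0.

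Non-neuronal lists lay mostly above 0. In the oligodendrocyte and myelin list 39 of 40 genes had a log2 fold change above 0, where 50.6% of all genes did, the median was 0.13, and 8 genes were higher at an unadjusted p under 0.05 (2.6% of all genes) and 0 lower. Mbp, myelin basic protein, was at 4700, 3747 and 4466 CPM in WT and 4737, 5438 and 4297 CPM in HET of batch 1, and at 1711, 2495 and 1849 CPM in WT and 2655, 2286 and 2269 CPM in HET of batch 3. The genotypes overlapped in both batches, and the batches differed more than the genotypes. Mog, a myelin surface protein, was at 75.9 ± 16.6 CPM in WT and 89.6 ± 19.1 CPM in HET (0.26 ± 0.10), and Ugt8a, which makes the myelin lipid galactosylceramide, at 75.1 ± 31.0 and 86.8 ± 35.5 CPM (0.24 ± 0.09). The list median was 0.10 within batch 1 and 0.17 within batch 3, and in other ages it was 0.03 at E18.5, 0.19 at P0 and 0.23 in adults. Oligodendrocyte precursor genes had a median of 0.03, with 9 of 14 above 0.

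All 25 endothelial genes tested had log2 fold changes above 0, from 0.06 to 0.30 with a median of 0.18. Of them, 9 were higher at an unadjusted p under 0.05, against 2.6% of all genes. Esam, an endothelial adhesion molecule, was at 12.4 ± 3.09 CPM in WT and 15.1 ± 3.59 CPM in HET (0.29 ± 0.08, adjusted p = 0.910). Cldn5, the tight junction protein of brain endothelium, was at 26.7, 31.2 and 21.3 CPM in WT and 38.9, 35.8 and 30.4 CPM in HET of batch 1, and at 38.6, 36.2 and 38.4 CPM in WT and 36.6, 37.0 and 43.3 CPM in HET of batch 3. The groups of Cldn5 overlapped in each batch, by less in batch 1, and the list median was 0.29 within batch 1 and 0.06 within batch 3. The summed endothelial level was 479.7 to 591.2 CPM in WT and 556.7 to 627.0 CPM in HET. The endothelial median was 0.07 at E18.5, 0.08 at P0 and −0.14 in adults, where 2 of 25 genes were above 0. Mural genes had 13 of 16 above 0 and a median of 0.11, which was 0.21 within batch 1, 0.02 within batch 3 and 0.04 without P22_HET_442. In adults the mural median was −0.11 and that of fibroblast and meningeal genes −0.16. Microglial genes had 22 of 24 above 0 (median 0.10), with C1qa at 59.5 ± 4.54 CPM in WT and 65.0 ± 8.78 CPM in HET. Astrocyte genes had 25 of 28 above 0 with a median of 0.08, and Vim, an intermediate filament of astrocytes and vessels, was at 0.15 ± 0.06. Fibroblast and meningeal genes had 24 of 29 above 0 over all animals, but their median was −0.15 within batch 1 and 0.29 within batch 3. Cholesterol synthesis genes had 21 of 24 above 0 with a median of 0.05, led by Cyp51 and by Lss (39.6 ± 3.05 CPM in WT, 45.2 ± 3.45 in HET). Members of a list vary together, so these counts are not counts of independent events.

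Immature neuron genes had 6 of 30 above 0 and a median of −0.05 (−0.08 within batch 1 and −0.03 within batch 3), and 4 were lower at an unadjusted p under 0.05 (2.28% of all genes). Gap43, a protein of growing axons, was at 237.9 ± 19.6 CPM in WT and 211.3 ± 25.7 CPM in HET (−0.19 ± 0.07), Dpysl5, a growth cone protein, at 42.9 ± 3.93 and 37.2 ± 7.52 CPM (−0.26 ± 0.09) and Cd24a at 13.7 ± 2.26 and 11.2 ± 1.88 CPM (−0.29 ± 0.11). None of the 3 passed the test. Presynaptic genes had a median of −0.03 (16 of 39 above 0), glutamatergic postsynaptic genes −0.01 (20 of 46) and GABAergic genes −0.01 (19 of 39). Grin3a, an NMDA receptor subunit, was at 47.7 ± 2.90 CPM in WT and 42.0 ± 5.48 CPM in HET (−0.23 ± 0.06), and Cplx2, complexin 2, at 1370 ± 156 and 1529 ± 238 CPM (0.15 ± 0.05). Pvalb, the calcium-binding protein of fast-spiking interneurons, was at 65.7 ± 6.74 CPM in WT and 74.5 ± 13.2 CPM in HET (0.22 ± 0.08), and its list, with perineuronal net genes, had 22 of 23 above 0 (median 0.08, 0.15 within batch 1 and 0.02 within batch 3). Sst, the interneuron peptide somatostatin, was at 202.3 ± 14.1 and 187.6 ± 19.7 CPM (−0.13 ± 0.05).

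Upper layer genes had a median of 0.04 (13 of 20 above 0), with Cux2 at 113.9 ± 14.7 CPM in WT and 126.8 ± 16.2 CPM in HET, and deep layer genes −0.03 (10 of 25). Potassium channel genes had a median of −0.02 (25 of 63 above 0), calcium channel genes 0.00 (8 of 19) and sodium channel genes −0.02 (6 of 16). The potassium channel median was 0.06 within batch 1 and −0.06 within batch 3, and the calcium channel median 0.05 and −0.07, so both changed sign between batches. For sodium channels the median was −0.05 within batch 1 and −0.04 within batch 3, all 6 HET animals had a mean log2 CPM of the list below the WT mean of their batch, and 0 genes were higher and 3 lower at an unadjusted p under 0.05 (2.6% and 2.28% of all genes). Each gene counted equally in that mean, whatever its level, and the log2 fold changes ran from −1.29 for Scn10a to 0.41 for Scn4b. Such a pattern was not particular to this list: all 6 HET animals were above those means for the endothelial and MYT family lists. The summed level of the list overlapped between the genotypes, at 1814 to 2052 CPM in WT and 1809 to 2086 CPM in HET. In this list, Scn3b, a beta subunit, was at 95.5 ± 6.38 CPM in WT and 87.3 ± 10.6 CPM in HET (−0.16 ± 0.06). Genes in which mutations raise autism risk had 16 of 63 above 0, with a median of −0.03 that was 0.02 within batch 1 and −0.06 within batch 3, and 2 of them, Tcf20 and Trip12, were lower at an unadjusted p under 0.05, against 2.28% of all genes. The values of this list ran from −0.16 to 0.31.

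NOTCH pathway genes had a median of 0.02 with 21 of 37 above 0. Rbpj, the DNA-binding effector of NOTCH, was at 20.8 ± 1.34 CPM in WT and 22.4 ± 1.603 CPM in HET (0.11 ± 0.05), Jag1, a ligand, at 5.35 ± 1.27 and 6.11 ± 1.53 CPM (0.23 ± 0.10), and Hes5, a target, at 15.7 ± 4.002 and 13.8 ± 3.50 CPM (−0.20 ± 0.09). WNT pathway genes had a median of 0.03 with 30 of 55 above 0. Rspo2, a secreted WNT enhancer, was at 20.3 ± 3.32 CPM in WT and 16.96 ± 2.498 CPM in HET (−0.27 ± 0.09), while Notum, a secreted WNT inhibitor, was at 2.59 ± 0.548 and 3.08 ± 0.623 CPM (0.28 ± 0.10). Ligands, receptors and targets of a pathway thus had values of both signs. Cell cycle genes had 29 of 39 above 0 and a median of 0.09, at levels of 1.601 ± 0.491 CPM in WT and 2.12 ± 0.816 CPM in HET for Mki67, a marker of dividing cells. Skeletal and cardiac muscle genes, a non-neuronal programme, had a median of 0.00 with 10 of 23 above 0. Immediate early genes had medians of 0.38 within batch 1 and −0.20 within batch 3, and circadian clock genes a median of 0.04 with 13 of 18 above 0. Cytosolic ribosomal protein genes had 74 of 79 above 0 with a median of 0.04, genes of oxidative phosphorylation a median of 0.01, and mitochondrially encoded genes 0.13, with their share of all reads at 3.57 to 6.82% in WT and 3.37 to 7.75% in HET.

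Markers of neighbouring brain regions varied between animals and batches, and these values stand beside every list above. Striatal genes had a median of 0.18, with 19 of 22 above 0. Drd2, the dopamine D2 receptor, was at 29.7 CPM in the HET male P22_HET_444, at 4.31 to 9.04 CPM in the other 5 animals of batch 1 and at 1.13 to 2.08 CPM in batch 3. Adora2a, an adenosine receptor of the same striatal neurons, was at 54.6 CPM in that animal, 7.73 to 18.52 CPM in the others of the batch and 1.90 to 3.96 CPM in batch 3. Without this HET animal the median of the striatal list was −0.07. The same animal had the highest Mbp and Gfap levels of the 12, and without it the oligodendrocyte list median was 0.10, the endothelial 0.18 and the Myt1l difference 0.32. The microglia median was 0.05 without it in place of 0.10, the astrocyte median 0.05 in place of 0.08, the mitochondrially encoded median 0.01 in place of 0.13 and the cytosolic ribosomal proteins median 0.01 in place of 0.04. Thalamic genes had a median of 0.07, hippocampal genes 0.03 and olfactory bulb genes −0.13. Without P22_HET_442 the olfactory bulb median was 0.06 and the hippocampus median −0.03. Leaving out that animal also gave an endothelial median of 0.12 in place of 0.18. The median of the fast-spiking and perineuronal net list was then 0.04 in place of 0.08. Of the choroid plexus and ependymal markers, 11 of 19 passed the filter, and Ttr, transthyretin of the choroid plexus, was at 18.6 ± 43.2 CPM in WT and 2.09 ± 1.75 CPM in HET, since 1 WT animal, P22_WT_447, held most of it. Erythroid genes had a median of 0.15, which was −0.02 without P22_HET_695.

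Genes that differ between the C57BL/6J and C57BL/6N substrains were read because the labels and methods name both. Nnt, part of which is deleted in C57BL/6J, is listed under 2 overlapping gene identifiers. Under one of them it was at 18.4 ± 3.82 CPM in WT and 17.6 ± 3.59 CPM in HET, a log2 fold change of −0.03 ± 0.14. The animals ran from 14.5 to 23.5 CPM in WT and from 14.2 to 22.5 CPM in HET, so the spread within a genotype was wider than the difference between them. Cyfip2 was at 788.8 ± 77.3 and 778.2 ± 58.8 CPM (−0.02 ± 0.04). Crb1, near the detection limit, had a log2 fold change of −0.52. None of the 3 genes passed the test. Gene counts do not read sequence differences, so these values cannot show whether the groups shared a background.

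The sequence before the gene starts was read for the motif AAAGTT on either strand, which MYT1L is known to bind. In RefSeq promoter windows (250 bases before to 50 after the start, GRCm38.p6), 1653 of the 12637 tested genes with a window held it, or 13.1%. Of the called genes there was 1, Myt1l, and none of its 5 windows held the motif. Among the genes given as values, Gfpt2 held it among the 7 higher genes with a window and Nwd2 among the 9 lower genes with a window.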

How the data were processed

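Bulk RNA-seq of prefrontal cortex was analysed in 12 P22 animals. Per the study's methods, RNA was made into dUTP libraries, sequenced as paired ends and mapped to mm10 with STAR; the submitters' processing notes name STAR and DESeq2. The counting tool and its strand setting are not given in the sources used here, so overlapping and antisense genes could share reads. The authors deposited raw counts per gene and library, with exon length and coordinates per gene. Their normalised values and their table of DESeq2 fold changes and p-values were not used.

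The labels give genotype, sex, age and sequencing identifier (batch). The 2 libraries of an animal were summed, and the animal was the replicate; the labels do not say whether animals shared litters. Tests used edgeR 4.0.16 under R 4.3.3 (quasi-likelihood F test, TMM scaling, the tool's filter on low counts, sex and batch as covariates, FDR under 0.05, 2-sided), after a check on simulated data. Log2 CPM used a prior count of 2. The study's methods use sex alone as covariate, which was an alternative here. DESeq2 1.42.0 and limma 3.58.1 served as alternatives. Myt1l was also tested by exact permutation. Interactions with sex and batch were fitted on the 12 animals, and differences between ages in 1 fit of 53 animals, with sex and batch terms per age. Depth was 31.1 to 53.8 M reads per animal, with 6 animals per group.

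Of 1083 list symbols, 1077 matched the gene names in the table. The members and lists were chosen with earlier results of these data known. Named genes were Myt1l, its relatives, genes of the study's interest and substrain genes; the 12 largest called changes per direction whose mean log2 CPM was 1 or more and whose HET animals all lay on 1 side of the WT mean of their batch, filled up to 12 by the smallest p, as values only, with the same expression minimum and no predicted genes; the 3 members of smallest p per list; the 5 of smallest p per interaction that passed; and genes within 2 Mb of Myt1l. Other genes named for their values (Mbp, Cldn5, Drd2, Adora2a, Gfap, Slc17a7, Gad1) are list members of known cell type specificity and were chosen after their values were seen. 1 gene of the study's interest is not reported here.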

Additional observations from a re-analysis of the deposited data

Results flagged for a closer look

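Among 154 groups of 6 animals (both genotypes, named genes and the scores of the 40 lists), 5 held an animal that stood apart by the Dixon ratio, the gap to the nearest animal over the range of the group, with a limit of 0.625. Chance gives about 1 in 20. Dgkg was highest in P22_WT_443 (ratio 0.748) and Ccn3 was highest in the same animal (0.654), so both genes' WT means contain 1 high animal. Epb41l5 was lowest in P22_HET_695 (0.73), against its higher level in the other HET animals. Myt1 was lowest in P22_WT_685 (0.652). The choroid plexus and ependyma score was highest in P22_WT_447 (0.632), at 1.92 against 0.756 in the next animal.

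The HET difference at P22 was above that at P0 for 14 genes by the test of the difference itself. For the named ones it was larger by 0.774 for Brip1os, 0.738 for Fgd3, 0.873 for Phactr4, 0.513 for Sav1 and 0.895 for Rbm12b1 on the log2 scale.

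In 2 lists the HET animals of one batch all lay on one side of the WT mean of their batch and those of the other batch on the opposite side; the difference between batches was not tested for lists. For glutamatergic postsynapse genes the mean score difference was 0.05 in batch 1 and −0.0743 in batch 3, a change of −0.124. For choroid plexus and ependyma genes it was −0.208 and 0.227, a change of 0.435, with P22_WT_447 in batch 1.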

How the results depend on the processing

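The count of 1 called gene moved with the model. It was 0 with sex only, 0 with no covariate, 0 with all ages in 1 fit, 0 within batch 1 and 0 within batch 3, 8 with DESeq2, 107 with no filter on low counts, and 0 to 2 without 1 animal, where leaving out P22_WT_443 added Thbs4 and leaving out any of P22_WT_445, P22_WT_685 and P22_WT_686 or any HET animal gave 0. It stayed 1 with RLE size factors, batch only, a robust fit, at least 1 CPM in 6 animals, FDR under 0.1 and either library alone. Without the filter the tool's prior degrees of freedom rose from a median of 6.42 to 631 and 104 of the 107 genes were among the 18062 tested with it. With the library number as replicate block on 24 unsummed libraries, with animal as random block, 33 genes were called; the numbers name libraries of one animal and pair no animals. Myt1l was higher in HET in every alternative fitted for it, at 0.30 to 0.35. By permutation its mean difference of 0.329 was 0.309 to 0.351 without 1 animal, with p at or under 0.005 throughout.

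With DESeq2 the sex interaction called 2 genes and the batch interaction 4, and without 1 animal the batch interaction called 0 to 2 (2 without P22_HET_444). The P22 minus P0 difference called 1 gene with sex only and 228 with DESeq2, and the P22 minus E18.5 difference called 2 with DESeq2. The causes were not tested. Of 3486 values of named genes under alternatives, 64 newly passed, 14 no longer passed (all Myt1l), 100 changed sign while not called, and none changed sign while called. Of 640 list medians, 71 changed sign and 2 moved by more than the spread between animals. With 6 animals per group the median SE was 0.0709; chi-square per degree of freedom was at most 1.355 between libraries of an animal and at least 4.43 between animals.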
